A study of Mus musculus with 32 samples.

Results

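The nuclear receptors described here are the members of this transcription factor superfamily that lie outside the circadian clock, and they were followed in interscapular brown adipose tissue (iBAT), a depot that burns fat to make heat. A fixed list of 34 mouse receptor symbols was matched through the Ensembl identifiers to the deposited count table of 50686 genes, and all 34 were in it. The list leaves out the REV-ERB and ROR receptors of the clock and, among others, the glucocorticoid receptor and the NR4A receptors. The animals were non-fasted male C57BL/6J mice, 10 weeks old, chow-fed and housed in mild cold under a light:dark cycle. No gene was altered and no agent was given, and by design the groups differ in the time of killing. Time is written as Zeitgeber time (ZT), in hours from lights on, with ZT12 as lights off. The 8 time points were spaced 3 h apart from ZT0 to ZT21, with 4 mice each and 1 library per mouse, and each mouse was killed once, so that a profile over the day joins different animals.

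Total counts per library ran from 16300770 to 18254659. Levels are CPM, that is counts relative to the scaled library total, given as mean ± SD over the 4 mice of a time point, and levels of different genes were compared only per kilobase of exon. Per the labels, lane 2 of the sequencer held ZT0, ZT3 and ZT6, lane 3 held ZT9, ZT12 and ZT15, and lane 4 held ZT18 and ZT21. Between lanes, lane and time of day cannot be told apart. In 8 of the 32 libraries the summed level of 11 skeletal muscle markers was over 5 times its median of 529.5 CPM, with a range over all libraries of 2.67 to 7714 CPM. Of these libraries 2 were from ZT0, 2 from ZT15 and 1 each from ZT3, ZT12, ZT18 and ZT21. The results were therefore also computed without these 8 libraries, which are meant below by libraries with muscle transcripts or muscle-containing libraries. The libraries that were kept were not free of muscle markers, with up to 2511 CPM in replicate 1 of ZT21. All 7 brown adipocyte markers were detected, with a summed level of 4445 to 8491 CPM, and the 3 liver markers summed to at most 0.334 CPM. In whole tissue, fewer cells of a type and less RNA per cell cannot be told apart.

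Nuclear receptors are transcription factors, many of which are switched on by small fat-soluble ligands such as thyroid hormone, retinoic acid, fatty acids, oxysterols, bile acids and steroids. Most bind DNA at copies of the half-site AGGTCA, alone or as a partner of a retinoid X receptor (RXR), and recruit corepressors or coactivators. In brown fat, PPARγ (Pparg) maintains the adipocyte state, thyroid hormone receptors take part in heat production, and the oestrogen-related receptors drive genes of oxidative metabolism.

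Pparg was the most abundant of the 34 transcripts, at 77.9 CPM per kilobase on average over the 32 libraries (range 53.3 to 105). It was followed by Ppara, the fatty acid sensor of fat oxidation, at 34.4 CPM per kilobase and by Esrra, the oestrogen-related receptor α, at 29.6. The range of Ppara over libraries, 7.11 to 74.8 CPM per kilobase, covered that of Esrra (24.2 to 41.8), so that these neighbours in the order did not differ beyond their spread. Next were Thra, the thyroid hormone receptor α, at 23.4, the oxysterol receptors Nr1h3 at 22.8 and Nr1h2 at 19.7, and then Nr2f6, Rxrb and Rxra between 14.3 and 14.5 CPM per kilobase. The plot of levels per kilobase shows overlapping ranges for most neighbours. At the other end, Nr6a1, Nr2f1, Vdr, Nr5a2, Esrrb and Nr1h4 all had a mean below 1 CPM per kilobase, and Nr1h4, the bile acid receptor FXR, was lowest of the tested receptors at 0.183.

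**Figure D1:**
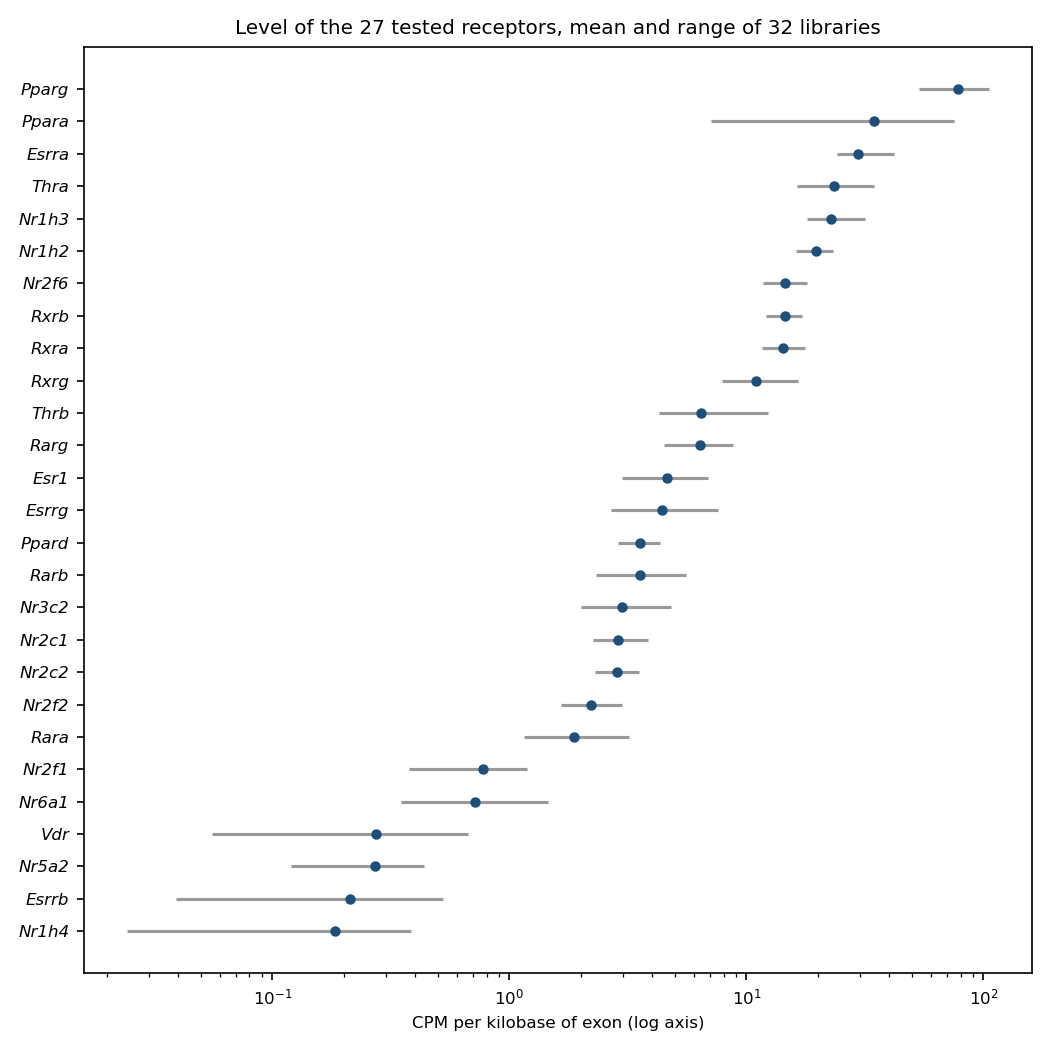
Level of the 27 tested receptors in CPM per kilobase of exon on a log axis; points are means and lines the range of the 32 libraries. Pparg lies highest at 77.9 and Nr1h4 lowest at 0.183, and Ppara has the widest range among the abundant receptors.

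Of the 34 receptors, 27 passed the filter on low counts and 7 were too low to test. Hnf4a and Nr0b2 (SHP) had 0 counts in all 32 libraries, where 3 counts, the limit that a count of 0 allows, would be 0.00539 CPM. Pgr, the progesterone receptor, had 2 counts in all, Nr1i2, the xenobiotic receptor PXR, 4, and Nr0b1 (DAX1) 6. Esr2, the oestrogen receptor β, had 31 counts, spread over 18 libraries. Nr1i3, the xenobiotic receptor CAR, had 74 counts, at most 8 in a library. Its 4 libraries of ZT0 held 0.514, 0.415, 0.477 and 0.278 CPM, whereas the highest library of all other time points was at 0.294 CPM, above the lowest of ZT0. Without the filter on low counts, Nr1i3 was past the threshold over time points (adjusted p = 0.0182) and on lane 2 (adjusted p = 0.0427), but not by the cosine (adjusted p = 0.146). Of the exon bases of Nr1i3, 74.9% also belong to Tomm40l on the opposite strand, and since it is not stated whether the counting used the strand, these reads cannot be assigned to Nr1i3 with certainty.

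The first question was how many of the receptors changed over the day. A 24 h cosine was past the threshold (adjusted p under 0.05) in 12 of the 27 tested receptors, where 36.1% of all 15505 tested genes were. Differences between any of the 8 time points were called for 16 of 27 (39.8% of all genes), and JTK, the rank test used in the study, called 13 of 27 (25.5% of all genes). The cosine and JTK counts include Nr1h4, which was kept by the filter on low counts only with time point groups. Without such groups, 11 receptors were past the cosine and 12 past JTK. In total, 11 receptors were past the cosine, time point and JTK tests alike (22.1% of all genes). With the tests that take lane into account, described next, 17 were past at least 1 of 7 tests (50.4% of all genes) and 10 past none. The 10 were Thrb, Rarg, Ppard, Pparg, Rxra, Rxrg, Nr2f6, Esr1, Nr3c2 and Nr5a2. The most abundant receptor, Pparg, was thus among those in which no change was detected, and so was Ppard, while Ppara was called.

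Because lane and time of day overlap, the cosine was fitted again with lane as a factor. This left 8 of 27 receptors past the threshold (17.2% of all genes), 7 of which were also called without lane. The 8 were Vdr, Esrrb, Ppara, Rara, Nr6a1, Nr2f2, Nr2c1 and Nr2c2, of which Nr2c2 was not past the cosine without lane. Peak times and amplitudes are throughout from the fit without lane, and were not fitted with lane. Among time points of the same lane, 4 receptors differed on lane 2 (13.3% of the genes tested there), 1 on lane 3 (1.88%) and 3 on lane 4 (4.42%). These calls came from 8 of 27 receptors (16.0% of all genes), namely Esrrb, Esrrg, Nr2f2, Nr6a1, Ppara, Rarb, Thra and Vdr. Without the 8 libraries with muscle transcripts, the counts were 11 for the cosine (29.5% of all genes tested in the remaining libraries), 13 for the time points (26.3%), 11 for JTK (15.9%) and 6 for the cosine with lane (9.93%). In the same libraries 4 receptors differed on lane 2 (9.34% of genes) and 0 on lanes 3 (0.356%) and 4 (0.934%). The share of all genes called was thus lower in each of these tests than with all 32 libraries. Among the cell type markers that could be tested (none of the 3 for liver), the cosine was past the threshold in 3 of 7 for brown adipocytes, 0 of 11 for skeletal muscle, 2 of 7 for endothelium, 3 of 6 for fibroblasts and preadipocytes, 1 of 4 for pericytes and smooth muscle, 3 of 5 for macrophages, 2 of 4 for lymphoid cells, 0 of 4 for Schwann cells and neurons and 0 of 3 for blood. These marker counts are from all 32 libraries, where 36.1% of all genes were past the cosine. The part of the markers in the receptor profiles was not tested.

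**Figure D2:**
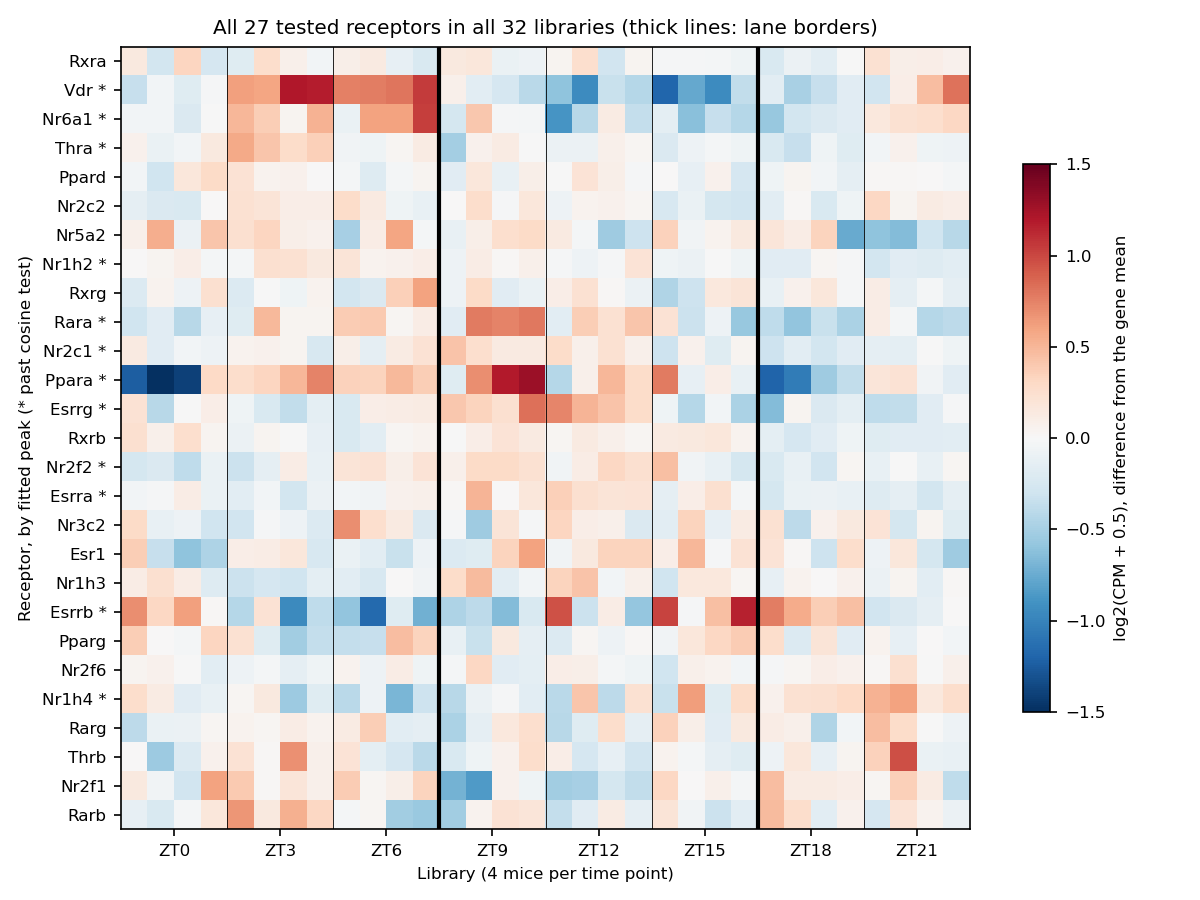
Level of the 27 tested receptors in each of the 32 libraries as log2(CPM + 0.5) minus the mean of the gene, receptors ordered by fitted peak and libraries by time point, with thick lines at the borders between lanes and stars for receptors past the cosine test. Vdr is high in the libraries of ZT3 and ZT6, Ppara low in 3 of 4 libraries of ZT0, and Esrrb mostly high at ZT15 and ZT18.

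Of the 12 receptors past the cosine test, 10 had their fitted peak in the light phase, between ZT3.0 (Vdr) and ZT10.5 (Esrra), and 2 in the dark phase, Esrrb at ZT17.8 and Nr1h4 at ZT19.0. Nr1h4 passed the filter on low counts only when it was set by time point groups, through libraries of ZT12 to ZT21, where it was high. Over all genes past this test, 50.9% peaked in the light phase. The amplitude, taken as the log2 difference between peak and mean of the fitted cosine, had a median of 0.364 over these 12, beside 0.216 over all genes past the test. Over all 27 tested receptors the median was 0.171, beside 0.139 over all tested genes. The amplitude was over 0.4 in 6 receptors, Vdr, Esrrb, Ppara, Rara, Nr6a1 and, with the same limit, Nr1h4.

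**Figure D3:**
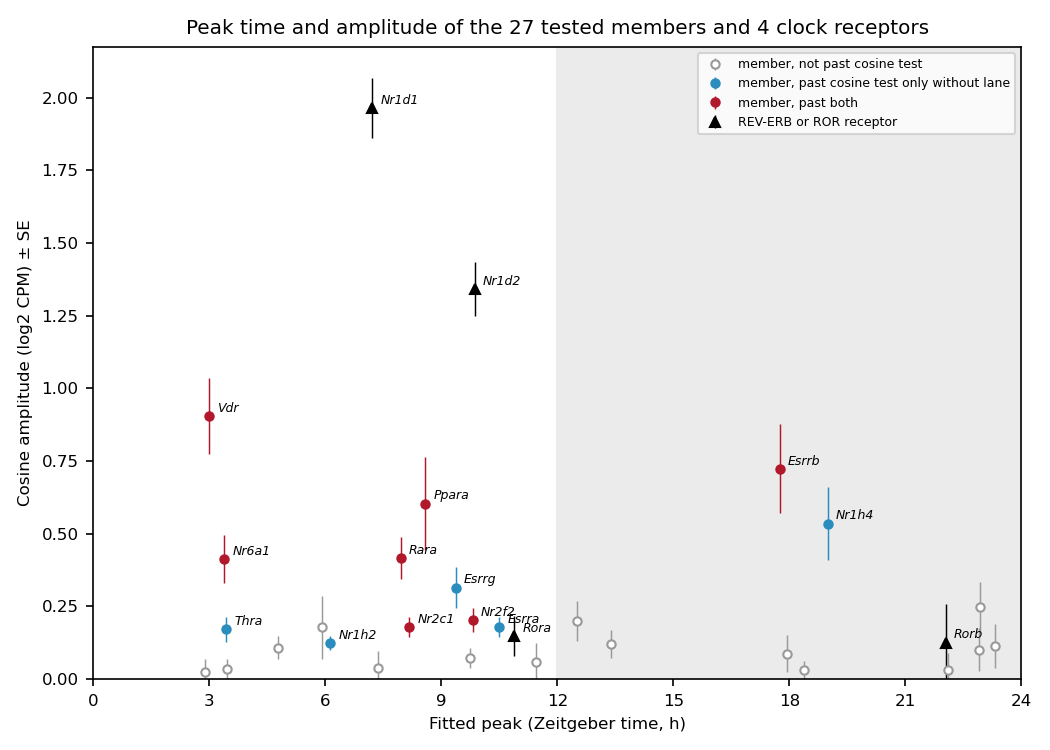
Fitted peak (Zeitgeber time in hours, dark phase grey) and cosine amplitude (log2 CPM) ± SE of the 27 tested receptors and of 4 REV-ERB and ROR receptors. The receptors past the test lie mostly in the light phase, with Vdr at 0.91 below Nr1d1 at 1.96 and Nr1d2 at 1.34.

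Vdr, Ppara, Rara and Nr6a1 were the receptors with a light-phase peak, an amplitude over 0.4 and a call both with and without lane. The DNA just before the start of each is printed for this reason, as the 250 bases upstream of 1 RefSeq start (build GRCm38.p6), 5′ to 3′ on the strand of the gene. Where several starts were listed, as for Rara and Nr6a1, the start with the most matches to the motifs searched was taken. The capitals mark CACGTG, the E-box bound by CLOCK and BMAL1, or the receptor half-site AGGTCA on either strand (TGACCT on the other).
Rara, chr11:98937468-98937717, plus strand: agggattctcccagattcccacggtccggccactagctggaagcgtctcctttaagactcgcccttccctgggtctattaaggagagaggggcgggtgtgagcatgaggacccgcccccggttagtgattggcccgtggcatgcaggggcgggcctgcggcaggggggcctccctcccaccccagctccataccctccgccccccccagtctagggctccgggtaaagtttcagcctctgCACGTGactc
Nr6a1, chr2:38784516-38784765, minus strand: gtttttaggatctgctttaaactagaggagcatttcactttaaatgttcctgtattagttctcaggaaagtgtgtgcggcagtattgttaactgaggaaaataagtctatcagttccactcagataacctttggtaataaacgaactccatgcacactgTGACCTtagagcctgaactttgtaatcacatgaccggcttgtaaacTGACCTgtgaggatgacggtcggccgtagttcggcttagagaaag
Vdr, chr15:97908297-97908546, minus strand: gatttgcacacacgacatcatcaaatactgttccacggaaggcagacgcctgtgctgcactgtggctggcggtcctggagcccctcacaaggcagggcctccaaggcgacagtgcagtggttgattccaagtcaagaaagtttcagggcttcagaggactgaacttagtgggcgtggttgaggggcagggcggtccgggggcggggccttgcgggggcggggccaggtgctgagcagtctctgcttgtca
Ppara, chr15:85735526-85735775, plus strand: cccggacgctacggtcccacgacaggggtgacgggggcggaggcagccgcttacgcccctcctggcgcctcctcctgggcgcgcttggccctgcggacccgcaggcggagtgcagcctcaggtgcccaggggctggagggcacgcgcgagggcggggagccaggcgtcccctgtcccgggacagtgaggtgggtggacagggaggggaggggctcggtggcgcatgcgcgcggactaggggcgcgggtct
The 4 stretches differed in base composition, with 65.2% G and C in Rara, 42% in Nr6a1, 61.2% in Vdr and 76.4% in Ppara. An E-box began 10 bases before this start of Rara, which is 1 of 4 starts listed for the gene. In Nr6a1, with 2 listed starts, the half-site began 91 and 45 bases before the one shown. Neither motif was in the windows of Vdr and Ppara. E-boxes were in 6.02% of all 32851 promoter windows of this length. Counted per gene, at any of its starts, they were in 6.86% of 27025 genes and in 5 of the 33 listed receptors (Esr2, Nr0b2, Nr1i3, Rara and Thrb). The half-site was in 14% of all windows, in 15.8% of genes and in 9 of the 33 receptors (Nr0b1, Nr1h4, Nr5a2, Nr6a1, Pparg, Rarg, Rxra, Rxrg and Thrb). The D-box letters TTATGTAA and TTACGTAA, searched on both strands, were in 0.819% and 0.113% of all windows, and DR1, 2 half-sites with 1 base between them that contains the single half-site, in 0.0335%. None of the 3 was found in a receptor of the list. Thra was not in the promoter table.

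Among the hormone receptors for thyroid hormone, Thra was called and Thrb was not. The 4 mice of ZT3 had 159, 143, 129 and 137 CPM of Thra, those of ZT18 had 91.0, 84.0, 102 and 94.1. All mice of ZT3 lay above all mice of ZT18, the time points with the highest and lowest mean, which were 1.53-fold apart. Here and below, such time points were picked from the same values, so a lack of overlap between them is no test. It was also seen for Rxra, Nr2f6 and Nr5a2, which were past no test, and it was not counted over all genes. The cosine had an amplitude of 0.17 ± 0.04 (SE) and a peak at ZT3.4 (adjusted p = 0.00469). With lane as a factor it was not past the threshold (adjusted p = 0.295), but within lane 2 the time points differed (adjusted p = 0.0113), and ZT3 was 0.39 ± 0.08 (log2, SE) above ZT0 (adjusted p = 0.0164). Without the libraries with muscle transcripts the cosine of Thra had an adjusted p of 0.0539. Of the exon bases of Thra, 5.7% are shared with Nr1d1 (REV-ERBα) on the other strand, whose own cosine had an amplitude of 1.96 and a peak at ZT7.2. Without knowing the strand setting, reads from the shared bases cannot be told apart, and their part in the Thra profile was not tested. Thrb ranged from 31.6 to 91.3 CPM, and its mean at ZT21, 59.3 ± 22.6 CPM, included the 1 library at 91.3 (cosine adjusted p = 0.32).

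Rara, the retinoic acid receptor α (ENSMUSG00000037992, chromosome 11, 98927818 to 98974942), was highest at ZT9 and lowest at ZT18. The mice of ZT9 had 6.93, 13.8, 13.4 and 14.0 CPM and those of ZT18 had 5.90, 5.02, 6.09 and 5.51 CPM. The mice of both time points did not overlap, and replicate 1 of ZT9 lay far below the others. The means were 12.0 ± 3.41 and 5.63 ± 0.47 CPM, 2.14-fold apart, with 6.50 at ZT0, 8.53 at ZT3 and 9.31 at ZT6. The cosine peaked at ZT7.9 with an amplitude of 0.42 ± 0.07 (SE) and was past the threshold without lane (adjusted p = 9.93e-05), with lane (adjusted p = 0.00143) and in each of the 32 fits that left out 1 library. On lane 2, ZT6 was 0.52 ± 0.15 (log2, SE) above ZT0 (adjusted p = 0.0469), while the test over its 3 time points was not past the threshold (adjusted p = 0.0807).

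Of the other retinoic acid receptors, Rarb was called by the time point tests alone and Rarg by none. Rarb differed between time points (adjusted p = 0.0377) and within lane 2 (adjusted p = 0.0286), but was not past the cosine test (adjusted p = 0.383). It was high at ZT3, with 29.3, 20.4, 26.6 and 22.8 CPM, and low at ZT6, with 17.9, 18.8, 12.6 and 12.2 CPM, and these values did not overlap. Leaving out single libraries kept the time point call in 25 of 32 fits and the lane 2 call in 6 of 12, and without the libraries with muscle transcripts the former was lost (adjusted p = 0.0597). With replicate number as a block both calls of Rarb were lost (adjusted p = 0.0601 and 0.0583). Of its exon bases, 34.1% overlap Top2b on the opposite strand, which had 1389 counts per library on average, so that the calls of Rarb are uncertain in the same way. Rarg, the most abundant retinoic acid receptor at 6.38 CPM per kilobase, ranged from 19.2 to 37.3 CPM (cosine adjusted p = 0.921, amplitude 0.03 ± 0.06, SE).

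The PPARs are the fatty acid receptors of the family, of which Ppara drives fat oxidation genes and Pparg adipocyte genes. Ppara (ENSMUSG00000022383, chromosome 15, 85734983 to 85802819) had the widest spread of the abundant receptors. The mice of ZT9 had 104, 191, 269 and 287 CPM and those of ZT0 had 49.9, 27.3, 44.2 and 145 CPM. The lowest mouse of ZT9 lay below the highest of ZT0, so that the time points with the highest and lowest mean overlapped, although their means of 213 ± 83.5 and 66.5 ± 53.1 CPM were 3.20-fold apart. The next lowest mean was that of ZT18, where all mice were between 50.8 and 91.2 CPM, whereas those of ZT6 were between 149 and 165 CPM. The cosine peaked at ZT8.6 with an amplitude of 0.60 ± 0.16 (SE), and was past the threshold without lane (adjusted p = 0.0105) and with lane (adjusted p = 0.0311). The latter held in 27 of 32 fits that left out 1 library, with the highest adjusted p of 0.074 without replicate 4 of ZT9, and was lost with scaling by library size alone (adjusted p = 0.0519).

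Within lane 4, Ppara was 0.80 ± 0.18 (log2, SE) higher at ZT21 than at ZT18 (adjusted p = 0.0406). The ZT21 mice had 134, 137, 114 and 105 CPM and the ZT18 mice 50.8, 56.9, 81.5 and 91.2 CPM, without overlap. This call was lost without the libraries with muscle transcripts (adjusted p = 0.0511) and with library size alone (adjusted p = 0.053), and held in 1 of 8 fits that left out a library of this lane. With replicate number as a block the call was lost as well (adjusted p = 0.1255). Within lane 2 the time points were not past the threshold (adjusted p = 0.0673), but 1 library decided it, since without replicate 4 of ZT0, which was among the muscle-containing libraries, the adjusted p was 0.000297. Without all 8 muscle-containing libraries it was 0.00221. Ppara thus stood at 27.3 to 49.9 CPM in 3 of 4 mice of ZT0 and at 142 to 198 CPM in all mice of ZT3.

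For Pparg no difference between time points was detected (adjusted p = 0.366) and its cosine amplitude was 0.09 ± 0.06 (SE, adjusted p = 0.595). Its means ran from 199.7 ± 46.6 CPM at ZT3 to 262 ± 33.6 CPM at ZT15, with overlapping ranges of 158 to 265 and 218 to 295 CPM. Ppard, the ubiquitous member, was between 21.5 and 32.5 CPM in all libraries, with an amplitude of 0.03 ± 0.03 (SE, adjusted p = 0.655). Per kilobase, the ratio of Ppara to Pparg therefore followed Ppara, from 0.192 ± 0.135 at ZT0 to 0.774 ± 0.286 at ZT9 and back to 0.239 ± 0.084 at ZT18. In single mice it ran from 0.0924 to 1.07. The same ratio of Rara to Rarg was 0.442 ± 0.083 at ZT9 and 0.22 ± 0.058 at ZT18, without overlap (0.353 to 0.554 against 0.173 to 0.304). Of 8 such ratios computed, these 2 had the lowest p in a permutation test of the time points. They were chosen after the values were seen, so no p is given.

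**Figure D4:**
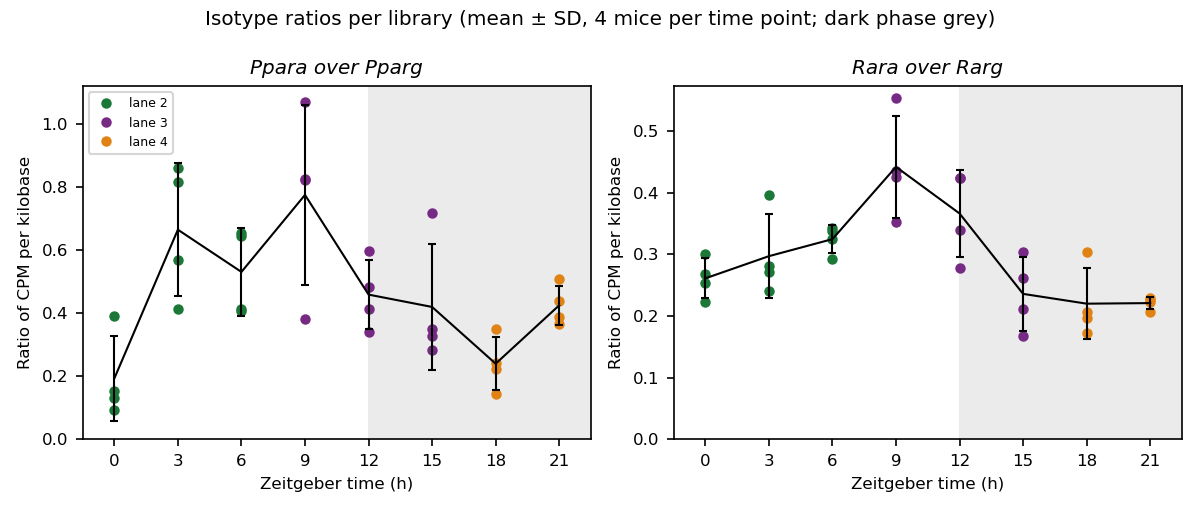
Ratio of CPM per kilobase of Ppara over Pparg and of Rara over Rarg in each library against Zeitgeber time in hours, coloured by lane, with mean ± SD of 4 mice and the dark phase in grey. Ppara over Pparg is lowest at ZT0 and ZT18 and reaches 1.07 in 1 mouse of ZT9.

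Vdr, the vitamin D receptor (ENSMUSG00000022479, chromosome 15, 97854425 to 97910630), had the largest amplitude of the 27 tested receptors, 0.91 ± 0.13 (log2, SE), at a low level of 1.55 CPM on average. The mice of ZT3 had 2.34, 2.29, 3.77 and 3.70 CPM and those of ZT15 had 0.315, 0.591, 0.466 and 0.939 CPM. All 8 mice of ZT3 and ZT6 were above all mice of ZT9, ZT12, ZT15 and ZT18, and the means of ZT3 and ZT15, 3.03 ± 0.82 and 0.58 ± 0.27 CPM, were 5.24-fold apart. The peak was at ZT3.0, with an adjusted p of 7.24e-06 without lane and 0.000886 with lane. Within lane 2 alone Vdr was 1.35 ± 0.21 (log2, SE) higher at ZT3 than at ZT0 (adjusted p = 0.00588) and 1.26 ± 0.22 higher at ZT6 than at ZT0 (adjusted p = 0.00379). These tests rest on 6 to 65 counts per library. Without the libraries with muscle transcripts, the fit with lane had an adjusted p of 0.0662, while the cosine without lane and the test within lane 2 stayed past the threshold.

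Of the oxysterol receptors (LXR), which sense cholesterol, Nr1h2 was called by the cosine and Nr1h3 by the time points only. Nr1h2 was highest at ZT3, with 64.6, 77.4, 77.2 and 72.9 CPM, and lowest at ZT21, with 54.2, 58.3, 57.5 and 59.0 CPM. These mice did not overlap, but the means of 73.1 ± 5.99 and 57.2 ± 2.09 CPM were 1.28-fold apart at most, and the call was lost with lane as a factor (adjusted p = 0.00149 without and 0.327 with lane). Nr1h3 was highest at ZT12, with 71.6, 76.4, 55.1 and 59.8 CPM, and lowest at ZT3, with 45.3, 47.6, 46.3 and 51.2 CPM, without overlap. The means were 65.7 ± 9.97 and 47.6 ± 2.58 CPM, and the adjusted p over the time points, 0.0462, stayed under the threshold in 10 of 32 fits leaving out 1 library. It was also lost without the libraries with muscle transcripts (adjusted p = 0.109), without mitochondrially encoded genes (adjusted p = 0.0539) and without the filter on low counts (adjusted p = 0.0662). The cosine of Nr1h3 was past the threshold with scaling by library size alone (adjusted p = 0.0325) but not with TMM scaling (adjusted p = 0.0995). The summed level of 5 macrophage markers, cells that also express this receptor, ran from 26.3 to 151.5 CPM over the libraries, and its part in the result was not tested.

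Nr1h4, the bile acid receptor, peaked at ZT19.0 with an amplitude of 0.54 ± 0.13 (log2, SE, adjusted p = 0.00695), at 1 to 15 counts per library. It had 0.793, 0.861, 0.501 and 0.575 CPM in the mice of ZT21 and 0.179, 0.355, 0.0561 and 0.223 CPM in those of ZT6, without overlap. It was not past the threshold over time points (adjusted p = 0.0823) or with lane (adjusted p = 0.153), whereas without the libraries with muscle transcripts it was (adjusted p = 0.0283 and 0.0321). It was kept by the filter on low counts through its highest libraries and was not tested with a filter that ignores the time point groups, while with no filter the cosine had an adjusted p of 0.0139. Its amplitude depended on the prior count used for the log scale and was 0.68 with a prior count of 0.5 and 0.39 with 5.

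The RXRs are the shared partners with which thyroid hormone, retinoic acid, PPAR, oxysterol and vitamin D receptors bind DNA. For Rxra and Rxrg no change was detected, with amplitudes of 0.03 ± 0.04 and 0.04 ± 0.06 (SE) and adjusted p of 0.817 and 0.727. Rxrb differed between time points (adjusted p = 0.000284, past the threshold in all 32 fits leaving out 1 library) but was not past the cosine test (adjusted p = 0.259) or any test within a lane. It was lowest at both time points of lane 4. The mice of ZT21 had 50.5, 51.0, 50.8 and 51.1 CPM and those of ZT0, the highest mean, had 67.9, 60.4, 68.0 and 58.7 CPM, without overlap. For Rxrb, lane and time of day therefore cannot be told apart.

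The orphan receptors TR2 (Nr2c1) and TR4 (Nr2c2), which act mostly as repressors on half-site repeats, both changed in the test with lane. Nr2c1 was highest at ZT9, with 17.8, 15.6, 14.3 and 14.4 CPM, and lowest at ZT18, with 10.5, 11.7, 10.7 and 11.5 CPM, and these mice did not overlap. The amplitude was 0.18 ± 0.04 (SE) with a peak at ZT8.2 (adjusted p = 0.000933, with lane 0.0271). The call with lane held in 29 of 32 fits leaving out 1 library and was lost without the libraries with muscle transcripts (adjusted p = 0.434) and without the filter on low counts (adjusted p = 0.075). Nr2c2 was highest at ZT3, with 49.2, 48.0, 45.1 and 45.3 CPM, and lowest at ZT15, with 35.5, 39.3, 35.0 and 34.3 CPM, again without overlap. A further high mean was at ZT21 (46.7 ± 3.99 CPM), and it was past the tests over time points (adjusted p = 0.00183), with lane (adjusted p = 0.00093) and by JTK (adjusted p = 0.0318), but not the cosine without lane (adjusted p = 0.0744). The JTK call was lost with templates of 24 h alone (adjusted p = 0.142), and it held in 23 of 32 fits leaving out 1 library. Without the libraries with muscle transcripts, the time point test gave an adjusted p of 0.0582 and JTK 0.473. Mrps25, with 551 counts per library on average, shares 30.7% of the exon bases of Nr2c2 on the opposite strand, and the calls of Nr2c2 are likewise uncertain.

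Among the COUP-TFs, Nr2f2 was called with and without lane (adjusted p = 0.0224 and 0.000994), with a peak at ZT9.8 and an amplitude of 0.20 ± 0.04 (SE). The call with lane held in 31 of 32 fits leaving out 1 library and was lost with scaling by library size alone (adjusted p = 0.0577). COUP-TFII, its product, is a regulator of vessel and adipocyte development. The mice of ZT9 had 19.7, 23.0, 23.0 and 22.1 CPM and those of ZT0 had 15.6, 16.1, 14.2 and 17.5 CPM, without overlap. Within lane 2, ZT6 was 0.43 ± 0.09 (log2, SE) above ZT0 (adjusted p = 0.0129). The test over lane 2 (adjusted p = 0.0245) held in 6 of 12 fits leaving out 1 library and was 0.0652 without the libraries with muscle transcripts. With replicate number as a block its adjusted p was 0.0525. Nr2f1 (COUP-TFI) was highest at ZT6, with 5.13, 3.90, 4.09 and 4.96 CPM, and lowest at ZT12, with 2.52, 2.56, 3.10 and 2.85 CPM, without overlap. Its mean was also low at ZT9 (2.93 ± 1.06 CPM) and between 4.00 and 4.52 CPM at the remaining time points, with an adjusted p of 0.0329 over time points and 0.069 for the cosine. The first held in 27 of 32 fits leaving out 1 library, and was 0.0914 without the libraries with muscle transcripts, 0.0678 with library size alone and 0.0553 without the filter on low counts. Nr2f6 ranged between 35.0 and 53.5 CPM (cosine adjusted p = 0.716), and 54.4% of its exon bases overlap Ocel1 on the opposite strand.

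The oestrogen-related receptors (ERR), which have no known natural hormone and act with PGC-1 on mitochondrial genes, had peaks in both phases of the day. Esrra was highest at ZT12, with 165.5, 153, 147 and 149 CPM, and lowest at ZT21, with 112, 117, 106 and 117 CPM, without overlap. Its cosine peaked at ZT10.5 with an amplitude of 0.18 ± 0.03 (SE, adjusted p = 0.000575) and was lost with lane as a factor (adjusted p = 0.598). Esrrg had a similar time of peak, ZT9.4, and a larger amplitude, 0.31 ± 0.07 (SE, adjusted p = 0.00143, with lane 0.126). At ZT12 it had 44.4, 37.9, 35.7 and 32.2 CPM, and at ZT15, on the same lane, 25.3, 19.4, 25.6 and 18.9 CPM. These mice did not overlap, and ZT15 was lower than ZT12 with a log2 difference of -0.75 ± 0.15 (SE, adjusted p = 0.0495). Esrrg was the 1 receptor called on lane 3 (adjusted p = 0.0362), a call that held in 4 of 12 fits leaving out 1 library and was lost without the libraries with muscle transcripts (adjusted p = 0.118). With replicate number as a block the call was lost as well (adjusted p = 0.1035). Skeletal muscle also expresses Esrrg, and the summed muscle markers ran from 19.9 to 7510 CPM at ZT12 and from 771 to 7642 CPM at ZT15. Their part in the result was not tested.

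Esrrb (ENSMUSG00000021255, chromosome 12, 86361117 to 86521628) peaked in the dark phase, at ZT17.8, with an amplitude of 0.72 ± 0.15 (log2, SE) that only Vdr exceeded among the 27. The mice of ZT15 had 2.84, 1.12, 1.75 and 3.17 CPM and those of ZT6 had 0.597, 0.237, 0.953 and 0.501 CPM. All mice of ZT15 lay above all mice of ZT6, with means of 2.22 ± 0.95 and 0.57 ± 0.30 CPM. The adjusted p was 0.00228 without lane and 0.000406 with lane, and both held in all 32 fits leaving out 1 library. Within lane 4, Esrrb was lower at ZT21 than at ZT18 (log2 difference of -0.96 ± 0.19, SE, adjusted p = 0.0297), with 0.849, 0.918, 1.00 and 1.15 CPM against 2.31, 1.93, 1.63 and 1.75 CPM. This within-lane call held in 1 of 8 fits leaving out 1 library and was lost without the muscle-containing libraries (adjusted p = 0.0856), although the mice of both time points did not overlap. With replicate number as a block the call was lost as well (adjusted p = 0.1156). Within lane 2, ZT6 was lower than ZT0 (log2 difference of -1.58 ± 0.43, SE, adjusted p = 0.0313), while the test over the 3 time points of this lane was not past the threshold (adjusted p = 0.0501). Counts of Esrrb were 4 to 54 per library.

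Of the steroid receptors on the list, Esr1, the oestrogen receptor α, stood at 40.6 to 94.3 CPM and its cosine had an adjusted p of 0.062 (amplitude 0.20 ± 0.07, SE, peak ZT12.5). It was past the threshold with DESeq2 (adjusted p = 0.0424), with library size alone (adjusted p = 0.0491) and in 7 of 32 fits leaving out 1 library, and with lane it was not (adjusted p = 0.914). Nr3c2, the mineralocorticoid receptor, was at 13.0 to 31.1 CPM with a cosine adjusted p of 0.694.

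Nr6a1, the germ cell nuclear factor (ENSMUSG00000063972, chromosome 2, 38723370 to 38927688), a repressor best known from embryonic cells, peaked at ZT3.4 with an amplitude of 0.41 ± 0.08 (log2, SE, adjusted p = 0.00051, with lane 0.0132). The mice of ZT6 had 6.86, 11.5, 11.6 and 15.7 CPM and those of ZT15 had 6.62, 4.61, 5.71 and 5.40 CPM. The groups did not overlap, and replicate 1 of ZT6 was closer to the mice of ZT15 than to the others of its group. On lane 4, Nr6a1 was 0.57 ± 0.11 (log2, SE) higher at ZT21 than at ZT18 (adjusted p = 0.0263), with 8.32, 8.73, 8.91 and 9.31 CPM against 4.85, 6.02, 6.31 and 6.50 CPM. This call held in 3 of 8 fits leaving out 1 library and was lost without the muscle-containing libraries (adjusted p = 0.0713), as was that with lane (adjusted p = 0.0509). The lane 4 call was also lost with replicate number as a block (adjusted p = 0.0707). Nr5a2 (LRH-1), which regulates cholesterol and bile acid genes in liver, had 13 to 46 counts per library and was not called (time points adjusted p = 0.0801), with its lowest mean, 0.96 ± 0.17 CPM, at ZT21.

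**Figure D5:**
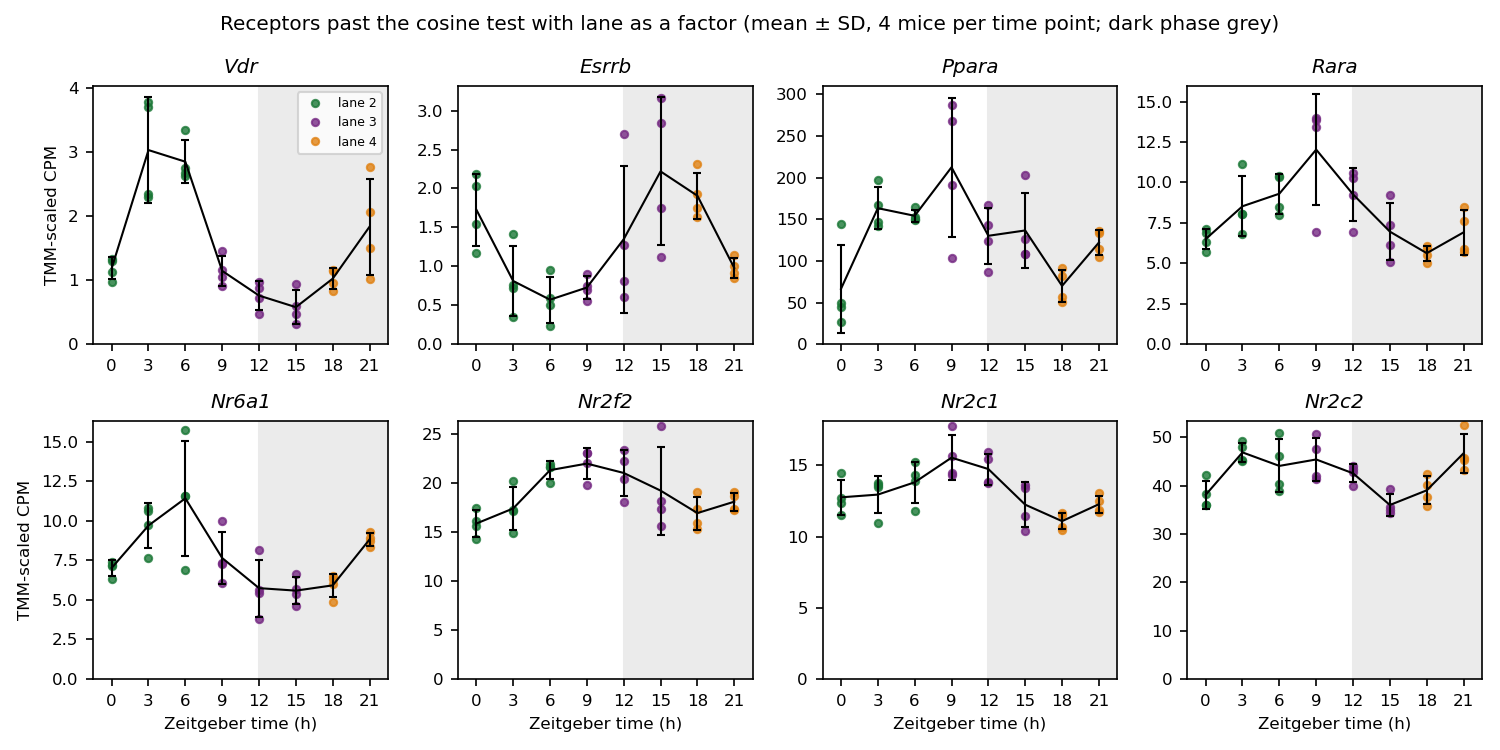
TMM-scaled CPM against Zeitgeber time in hours for the 8 receptors past the cosine test with lane as a factor, with 1 point per mouse coloured by lane, mean ± SD of 4 mice as a line and the dark phase in grey. Vdr and Nr6a1 are highest at ZT3 and ZT6, Ppara, Rara, Nr2f2 and Nr2c1 at ZT9, and Esrrb at ZT15.

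Beside these, 4 REV-ERB and ROR receptors of the clock were compared. Nr1d1 and Nr1d2, the REV-ERBs, had amplitudes of 1.96 ± 0.10 and 1.34 ± 0.09 (SE) with peaks at ZT7.2 and ZT9.9. Vdr had the next lower amplitude, 0.91 ± 0.13. Rora (amplitude 0.15 ± 0.07, adjusted p = 0.21) and Rorb (0.13 ± 0.13, adjusted p = 0.731) were not past the cosine test, but Rora differed between time points (adjusted p = 0.000817) and within lane 2 (adjusted p = 0.0174). The cosine called 2 of 4 clock receptors and 12 of 27 receptors outside the clock (36.1% of all genes), and the time point test called 3 of 4 and 16 of 27 (39.8%). No test of these differences was made.

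Coregulators carry the action of all these receptors on chromatin. Of 21 tested, 8 were past the cosine test, near the share of all genes (36.1%), with a median amplitude of 0.109 over the list. The lowest adjusted p was that of Hdac3, the deacetylase of the corepressor complex (amplitude 0.14 ± 0.02, SE, peak ZT11.0, adjusted p = 2.84e-05), followed by Tbl1xr1, which exchanges corepressors (0.32 ± 0.05, ZT9.0, 3.41e-05), and the methyltransferase Carm1 (0.12 ± 0.02, ZT15.0, 5.93e-05). With lane as a factor, 5 of 21 were past the threshold (17.2% of all genes). Of the 3 named, Tbl1xr1 stayed past it (adjusted p = 0.00069), and Hdac3 (adjusted p = 0.272) and Carm1 (adjusted p = 0.35) did not. Of 35 genes for the making, transport and breakdown of ligands, 22 were tested and 9 past the cosine test, again near the share of all genes, and 2 with lane as a factor. Among them Dhrs3, which turns retinal back to retinol, peaked at ZT23.4 (amplitude 0.44 ± 0.05, SE, adjusted p = 1.15e-07, with lane 0.000471), where Rara peaked at ZT7.9. Acsl1, which activates fatty acids, peaked at ZT8.6 (0.37 ± 0.06, adjusted p = 6.40e-05), the lipase Pnpla2 at ZT13.1 (0.14 ± 0.02, adjusted p = 0.000102) and Rdh10, the retinol dehydrogenase, at ZT16.4 (0.20 ± 0.04, adjusted p = 0.0018). With lane, Acsl1 stayed past the threshold (adjusted p = 0.0149), and Pnpla2 (adjusted p = 0.967) and Rdh10 (adjusted p = 0.0672) did not.

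Known target genes of the receptors were counted in the same way, beside the 36.1% of all tested genes past the cosine test and the 17.2% past it with lane, and a gene can be on several lists. With lane as a factor the counts fell to 4 of 21 for the PPARs, 2 of 5 for CAR and PXR, 4 of 8 for the mineralocorticoid and glucocorticoid receptors, 1 of 8 for the thyroid hormone receptors, 1 of 11 for the oxysterol receptors, 1 of 7 for the retinoic acid receptors and 2 of 11 for the oestrogen-related receptors. Of the PPAR targets, 11 of 21 tested were called, 10 of them with a light-phase peak. They were led by Cpt1a, the gate of mitochondrial fat oxidation (amplitude 0.43 ± 0.05, SE, peak ZT9.4, adjusted p = 1.27e-07), and the fatty acid transporter Slc27a1 (0.40 ± 0.05, ZT7.9, adjusted p = 6.72e-07), which both stayed past the threshold with lane (adjusted p = 7.35e-06 and 0.000577). Lpl, which frees fatty acids from lipoproteins (0.38 ± 0.05, ZT12.0, adjusted p = 3.54e-06), and the phospholipid transfer protein Pltp (0.25 ± 0.04, ZT11.3, adjusted p = 0.000282) did not (adjusted p = 0.748 and 0.11). Of the xenobiotic targets of CAR and PXR, 5 of 5 tested were called, with Cyp2b10, a cytochrome P450, at an amplitude of 1.51 ± 0.30 (SE) and a peak at ZT19.2 (adjusted p = 0.00152, with lane 1.17e-05), although both receptors were too low to test. Also called were Por, the electron donor of these enzymes (0.52 ± 0.04, ZT10.4, adjusted p = 1.25e-11), the exporter Abcb1a (0.30 ± 0.06, ZT11.6, adjusted p = 0.00042) and Gstm1 (0.10 ± 0.03, ZT12.6, adjusted p = 0.0297). With lane, Por stayed past the threshold (adjusted p = 2.04e-05), and Abcb1a (adjusted p = 0.155) and Gstm1 (adjusted p = 0.346) did not.

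Targets of the mineralocorticoid and glucocorticoid receptors, which share their DNA sites, were called in 6 of 8. They included Fkbp5 (amplitude 1.19 ± 0.19, SE, peak ZT15.3, adjusted p = 3.06e-06), Tsc22d3 (0.79 ± 0.07, ZT15.4, adjusted p = 7.04e-10), the clock gene Per1 (0.99 ± 0.14, ZT11.5, adjusted p = 7.09e-06) and Klf9 (0.35 ± 0.06, ZT10.7, adjusted p = 0.000256). All 4 stayed past the threshold with lane, with adjusted p of 0.00697, 0.00063, 0.0069 and 0.0127. Of the thyroid hormone targets, 6 of 8 tested were called. Besides Klf9 these were led by Hr, a corepressor (0.35 ± 0.08, ZT2.4, adjusted p = 0.00259), Ucp1, the uncoupling protein of brown fat (0.43 ± 0.11, ZT6.5, adjusted p = 0.00958), and the calcium pump Atp2a2 (0.21 ± 0.06, ZT11.3, adjusted p = 0.0097). Of these 3, none was past it with lane as a factor (adjusted p from 0.144 to 0.742).

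Targets of the oxysterol receptors were called in 3 of 11 tested, Mylip, which marks the LDL receptor for breakdown (amplitude 0.30 ± 0.05, SE, peak ZT11.7, adjusted p = 9.45e-05), Srebf1, the lipogenic transcription factor (0.37 ± 0.10, ZT15.3, adjusted p = 0.0044) and the cholesterol exporter Abca1 (0.25 ± 0.07, ZT11.0, adjusted p = 0.00711). With lane, Srebf1 alone of the 3 was past the threshold (adjusted p = 0.0118), and the next gene, Abcg1, was not called (adjusted p = 0.0716). Targets of the retinoic acid receptors were called in 2 of 7 tested, Dhrs3 and Ucp1, while Rarres2 was not (adjusted p = 0.0572). Targets of the oestrogen-related receptors were called in 3 of 11. These were Esrra itself, Pdk4, which shuts glucose carbon out of the mitochondrion (0.66 ± 0.17, ZT2.8, adjusted p = 0.0038), and cytochrome c, Cycs (0.17 ± 0.05, ZT22.3, adjusted p = 0.0132). With lane, Pdk4 stayed past the threshold (adjusted p = 0.00968) and Cycs did not (adjusted p = 0.235). The median amplitude was 0.0539 over the targets of the oestrogen-related receptors, 0.246 over those of the PPARs and 0.139 over all tested genes.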

How the data were processed

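RNA from iBAT of 32 mice was sequenced as stranded paired-end libraries. Reads were mapped to mm10 with GSNAP by the authors, who deposited raw counts per Ensembl gene made with HTSeq (0.6.1, per the labels); whether counting used the strand is not given in the sources used here. Gene positions and exon lengths are from GENCODE vM21 (GRCm38), and 50376 identifiers had a symbol. The members and gene lists were chosen with earlier results of these data known. Some genes of the comparison lists are not reported here and were left out of the list counts.

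Genes were filtered with filterByExpr of edgeR (4.0.16, R 4.3.3) by time point, which left 15505 genes with 99.9% of counts, and scaled with TMM. A 24 h cosine (2 terms together), differences between the 8 time points, the cosine with lane as additive factor, and differences within each lane were tested on counts with edgeR's quasi-likelihood test, with Benjamini-Hochberg adjustment over all tested genes and a threshold of 0.05. Nr1h4 was too low for the fits of lanes 2 and 3. JTK was an own implementation with 15 templates of 21 and 24 h period and an exact null distribution. Amplitudes and peaks were fitted to log2 CPM (prior count 2), without lane in all cases. The tests were checked on simulated data. Alternatives were DESeq2 (1.42.0) tests and size factors, library size alone, removal of mitochondrially encoded genes, other filters, JTK and prior count settings, a replicate block, and leaving out single libraries or the 8 with muscle transcripts.

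The pairing of replicate numbers was checked by the correlation of deviations from the time point means, which averaged -0.03 over 112 pairs with the same number and passed 0.1 in 49, so the numbers were not taken to pair mice. Of 48 pairs of libraries of the same time point none differed as little as counting noise. The limit that a count of 0 allows is 3 counts; it covers counting error only. Every receptor of the list is accounted for; those past a test are named with values in each mouse at the time points of highest and lowest mean, and of each further list the up to 4 genes with the lowest adjusted p of the cosine are named. Promoter sequences are from RefSeq (33 of the 34 receptors listed). The ratios of receptors were chosen after seeing the values.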

Additional observations from a re-analysis of the deposited data

Results flagged for a closer look

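In groups of 4 mice, 9 of 216 combinations of tested receptor and time point held a mouse that stood apart from the others of its time point by Dixon's test. Chance gives about 1 in 20, so the number flagged was not above chance. The largest in effect was Rara at ZT9, where replicate 1 had 6.93 CPM and the others 13.4 to 14.0 CPM, in the time point with the highest mean of this gene. Vdr had 3.34 CPM in replicate 4 of ZT6, above 2.63 to 2.75 CPM in the others, and Nr2f1 had 5.46 CPM in replicate 1 of ZT18, above 4.15 to 4.23 CPM. Nr2c1 was low in replicate 4 of ZT3 with 11.0 CPM, where the others had 13.5 to 13.7 CPM. Esrrg was low in replicate 1 of ZT6 with 22.6 CPM beside 28.3 to 28.9 CPM, and Esrra in replicate 1 of ZT18 with 107 CPM beside 119 to 121 CPM. Nr2f2 had 20.0 CPM in replicate 3 of ZT6 beside 21.6 to 21.9 CPM. Rxra had 74.0 CPM in replicate 4 of ZT15 beside 76.1 to 76.5 CPM, and Rxrg had 30.5 CPM in replicate 2 of ZT9, above 22.0 to 23.4 CPM in the others. Leaving out replicate 1 of ZT9 kept the calls of Rara and gave an adjusted p of 6.09e-05 for its cosine with lane, beside 0.00143 with all libraries (edgeR's quasi-likelihood test).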

How the results depend on the processing

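The counts of receptors past the cosine (12), time point (16), JTK (13) and lane-adjusted cosine tests (8) stayed within 1.5 times of these values in all alternatives run, with 12 to 14, 13 to 17, 11 to 13 and 6 to 8 over the fits leaving out 1 library. The small counts within lanes did not. On lane 2 there were 7 called receptors without a filter on low counts in place of 4, the further 3 being Esrrb, Ppara and Nr1i3, which was otherwise too low to test. On lane 3 there were 0 in place of 1 with library size alone, with the replicate block and without the libraries with muscle transcripts. On lane 4 there were 0 in place of 3 with the replicate block and without the libraries with muscle transcripts. Over the fits leaving out 1 library, they ran from 2 to 8 on lane 2, 0 to 1 on lane 3 and 0 to 2 on lane 4. The cause was not tested. With the replicate block, the calls of Nr2f2 and Rarb on lane 2, of Esrrg on lane 3, of Esrrb, Nr6a1 and Ppara on lane 4 and of Rarb over time points were lost, those of Ppara on lane 2 and Nr1h4 over time points were gained, and the counts past the cosine (12), the time points (16) and the cosine with lane (8) were the same. Of the calls by the cosine without lane, that of Thra was lost without the libraries with muscle transcripts and the rest held in every alternative run, except that Nr1h4 did not pass the filter without time point groups. No result reversed. With library size alone, the JTK calls of Nr2c2 and Thra and the lane 3 call of Esrrg were lost, and without the filter on low counts the JTK calls of Esrrg and Nr1h4. Without the libraries with muscle transcripts the JTK calls of Nr2c2 and Thra were lost. Of 32 fits leaving out 1 library, the JTK call held in 16 for Nr1h4, 23 for Nr2c2, 27 for Esrrg and 28 for Thra. The tested receptors with the fewest counts per library were Nr1h4 (1 to 15), Esrrb (4 to 54), Vdr (6 to 65) and Nr5a2 (13 to 46), where counting error is largest in relation to the value, and 7 were too low to test.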

Other observations

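Of 9 further nuclear receptors that are neither on the list nor among the REV-ERB and ROR receptors, 4 were tested. The cosine called 2 of these 4 (36.1% of all genes), and 0 with lane as a factor (17.2%). Nr3c1, the glucocorticoid receptor, had an amplitude of 0.13 ± 0.04 (log2, SE) and a peak at ZT13.7 (adjusted p = 0.0279, with lane 0.804, over time points 0.00207). Nr4a3, an early response receptor, had 2.34 CPM on average and an amplitude of 0.41 ± 0.30 (SE, adjusted p = 0.0424, with lane 0.815), and it differed between time points (adjusted p = 0.000603) and within lane 2 (adjusted p = 0.0309). Nr4a1 and Nr4a2 had adjusted p of 0.388 and 0.329 (edgeR's quasi-likelihood test). Nr1h5, Hnf4g, Nr2e1, Nr2e3 and Nr5a1 were too low to test.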
